A study of Mus musculus with 4 samples.

Results

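The 10 genes described here encode tau and other proteins that bind microtubules or their building block, tubulin. They are the tau family (Mapt, Map2 and Map4), the large microtubule-associated proteins (Map1a and Map1b), Map6 and Map7d2, and the stathmins Stmn1, Stmn2 and Stmn3. They were picked by symbol, with earlier results of these data known. All 10 were found among the 27998 genes of the deposited lists. Nuclei were isolated from pooled frozen hippocampi of B6 mice aged 9 months and sequenced with a droplet method that reads the 3′ end of transcripts. The 4 libraries were P301S/EKO (7 hippocampi), P301S (8), EKO (7) and WT (7), with 1 library per genotype. The study named 6 genotypes, and the other 2 were not analysed here. P301S mice carry a mutant tau transgene. The labels do not spell out EKO, but the title names apoE and the counts of Apoe, given below, were nearly absent from both libraries so labelled. The sources used here give neither the transgenic line, nor its promoter, nor the cells that express it.

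Microtubules are hollow polymers of tubulin that carry transport along axons and dendrites. Tau, made from Mapt, lies along them mainly in axons, and in tauopathies it leaves them and forms aggregates. P301S is a human tau mutation that causes a frontotemporal dementia, and it lies in the repeats with which tau holds the microtubule. The transgene's product is human tau, and the mm10 genome holds no human gene. Reads of the transgene may therefore have been counted as Mapt, and these totals do not separate them from mouse Mapt. In a well-known line with this mutation the transgene sits behind the promoter of Prnp, the mouse prion protein gene. Prnp is given beside Mapt for that reason, although the line used here is not given.

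Mapt, Map2 and Map4 share a repeat with the codons of proline and 3 glycines. A window each of Map2 and Map4 is printed as an example, since the P301S change falls in such a repeat of tau. In-frame runs of CCNGGNGGNGGN, where N is any base, were sought on the coding strand of GENCODE vM21 transcripts (mm10). Transcript Map2-204 held 2 runs and Map4-201 held 3. Of 21591 protein-coding genes, 491 (2.27%) held at least 1 such run in any transcript, 39 (0.181%) at least 2 and 11 (0.0509%) at least 3. Each line below is a coding window of 60 bases, read 5′ to 3′, with the run in capitals. The windows cross an exon border, and lie at chr1:66438322-66438366 and chr1:66438792-66438806 (Map2, plus strand, exons 14 and 15) and at chr9:110072667-110072705 and chr9:110078003-110078023 (Map4, plus strand, exons 15 and 16). The order along the transcript gives the number of a run, not an alignment of repeats.
Map2 run 2: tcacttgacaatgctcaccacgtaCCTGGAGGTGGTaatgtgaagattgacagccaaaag
Map4 run 2: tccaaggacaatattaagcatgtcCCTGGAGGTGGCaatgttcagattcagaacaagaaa
The windows matched at 41 of 60 bases (68.3%), and the first windows of the same genes at 37 of 60 (61.7%). The deposited values are gene totals from the 3′ end and hold no base calls, so neither the mutation nor the human sequence is read in them.

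After filtering, 5274 nuclei were kept in P301S/EKO, 2860 in P301S, 5199 in EKO and 5234 in WT, with 7489167 to 12000929 UMIs (unique molecules) per library. The median per nucleus was 1420.5 UMIs in P301S/EKO, 2146.5 in P301S, 1444 in EKO and 1904.5 in WT, so both libraries without Apoe were shallower. From 73 to 147 barcodes of a library also occurred in another library. Levels are given as CPM, the UMIs of a gene scaled to a common total for each library or class of nuclei. Apoe stood at 19.8 CPM in P301S/EKO and 16.2 in EKO, against 6489 in P301S and 1899 in WT. The Y-linked gene Eif2s3y was lower in both libraries without Apoe (265 CPM in P301S/EKO and 293 in EKO, against 512 in P301S and 552 in WT), so the pools also differed in this way. The X-linked Xist was low in all 4 libraries, at 7.89, 5.74, 9.84 and 6.58 CPM in P301S/EKO, P301S, EKO and WT. The source of the Eif2s3y difference was not tested. Malat1, a nuclear RNA, took 26.4% of UMIs in P301S and 31.1% to 31.6% in the other libraries. Nuclei were grouped by markers into 9 classes of at least 48 nuclei per library, written "-like", of which 5 are neuronal. No genotype had a second library. Each difference below therefore has no replicate check, no test between genotypes was possible, and intervals are 95% and hold counting error only. Fewer nuclei of a subtype and less RNA per nucleus cannot be told apart within a class.

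Mapt (chr11:104231390-104332090, plus strand) was higher with the transgene than without it in every neuron-like class. Over all kept nuclei it stood at 207 CPM in P301S/EKO, 254 in P301S, 156 in EKO and 160.0 in WT. In CA1 neuron-like nuclei, the output neurons of the hippocampus, it had 182, 244, 116 and 140 CPM in P301S/EKO, P301S, EKO and WT, from 237, 170, 141 and 272 UMIs. CA2 or CA3 neuron-like nuclei held 188, 271, 146 and 153 CPM in that order. Both libraries with the transgene lay above both without it in these classes. The subicular or cortical excitatory class held 199, 256, 172 and 148 CPM in the same order. Inhibitory neuron-like nuclei held 207, 221, 149.6 and 138 CPM. In dentate granule neuron-like nuclei the spread was smallest, with 197, 199, 157 and 166 CPM, and the P301S value there came from 59 UMIs in 158 nuclei. The order P301S, P301S/EKO, then the 2 libraries without the transgene held in all 5 neuron-like classes at this scaling. In dentate granule and inhibitory neuron-like nuclei the intervals of P301S and P301S/EKO overlapped. With median-of-ratios scaling, or with Mapt, Prnp, Malat1 and mitochondrial genes left out of the total, P301S/EKO was not below P301S in all 5.

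**Figure D1:**
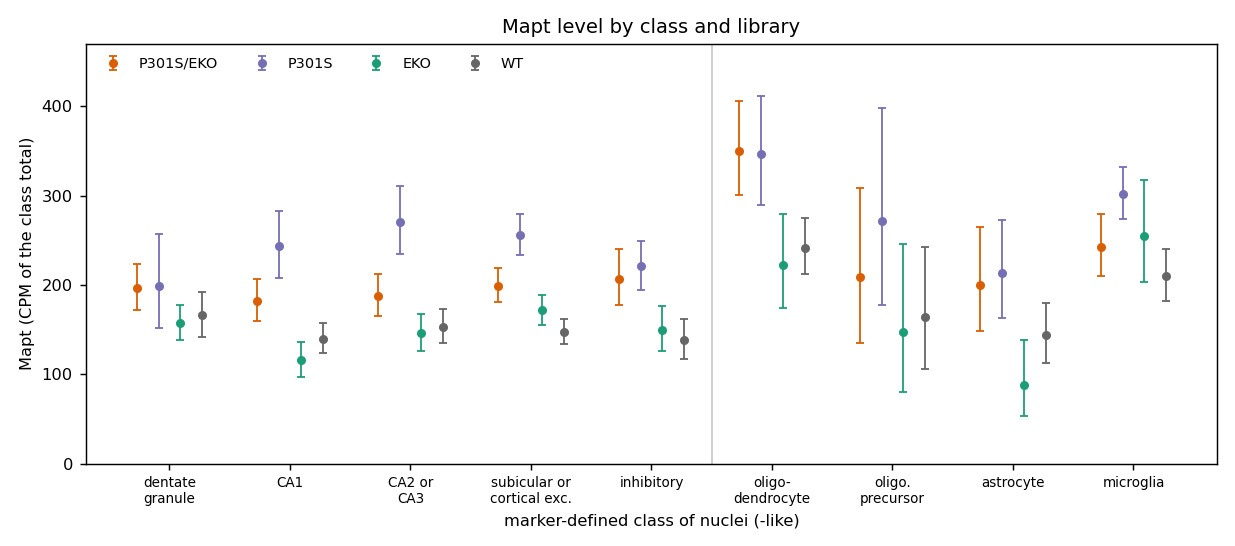
Mapt level in CPM of the class total (vertical axis) in 9 marker-defined classes (horizontal axis) for P301S/EKO, P301S, EKO and WT, 1 point per library with its exact Poisson 95% interval. The P301S and P301S/EKO points lie above the EKO and WT points in all 5 neuron-like classes, while microglia-like nuclei of EKO (255 CPM) lie above those of P301S/EKO (243 CPM).

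P301S was set beside WT, and P301S/EKO beside EKO, for the transgene on either Apoe background; these 2 comparisons share no library. In P301S over WT, Mapt was 1.75-fold higher in CA1 (1.43 to 2.12), 1.77-fold in CA2 or CA3 (1.46 to 2.13), 1.73-fold in subicular or cortical (1.52 to 1.97) and 1.60-fold in inhibitory neuron-like nuclei (1.30 to 1.97). The dentate ratio of 1.20 had an interval of 0.879 to 1.62, which includes no difference. In P301S/EKO over EKO the ratios were 1.58 in CA1 (1.27 to 1.95), 1.38 in inhibitory, 1.29 in CA2 or CA3, 1.25 in dentate granule and 1.16 in subicular or cortical neuron-like nuclei (1.01 to 1.33). The class with the smallest ratio thus differed between the backgrounds. Averaged with equal weight over the 5 neuron-like classes, the log2 ratio, here called the neuron mean, was 0.67 in P301S over WT (0.54 to 0.80) and 0.40 in P301S/EKO over EKO (0.28 to 0.53). It was −0.28 in P301S/EKO over P301S (−0.41 to −0.15) and −0.02 in EKO over WT (−0.14 to 0.11). With median-of-ratios scaling the first was 0.49 and the third −0.11.

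Finer clusters showed the same side for Mapt. Of the 10 neuron-like clusters, 10 were higher in P301S than in WT and 9 in P301S/EKO than in EKO. In the remaining cluster, of subicular or cortical excitatory type, P301S/EKO stood at 191 CPM and EKO at 192. Prnp had neuron means of 0.93 in P301S over WT (0.84 to 1.01) and 0.76 in P301S/EKO over EKO (0.68 to 0.83), above those of Mapt. Between the libraries without the transgene, EKO over WT, Prnp was also above 0 in 5 of 5 classes (0.27, interval 0.19 to 0.35). Mapt stood at −0.02 there. In dentate granule neuron-like nuclei, where Mapt ratios were low, Prnp stood at 899 CPM in P301S/EKO and 703 in P301S, against 441 in EKO and 412 in WT. Kansl1, which lies just past the 3′ end of Mapt on the opposite strand, had neuron means of 0.12 (−0.17 to 0.42) and 0.14 (−0.12 to 0.40). Nsf, a vesicle fusion gene of the same region, had −0.13 and −0.00. How much of the Mapt or Prnp count came from the transgene was not tested.

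Map2 (chr1:66175273-66442583, plus strand), the dendritic relative of tau, differed in direction between the backgrounds. In CA1 neuron-like nuclei it had 175 CPM in P301S/EKO, 258 in P301S, 214 in EKO and 228 in WT. CA2 or CA3 neuron-like nuclei held 143, 205, 185 and 173 CPM in that order. P301S was highest and P301S/EKO lowest in both classes. Its neuron mean was 0.20 in P301S over WT (0.08 to 0.32), above 0 in 5 of 5 classes, and −0.19 in P301S/EKO over EKO (−0.30 to −0.08), below 0 in 5 of 5. In P301S/EKO over P301S it was −0.39 (−0.51 to −0.26). Across the alternative settings the P301S over WT value ran from 0.02 to 0.34 and the P301S/EKO over EKO value from −0.33 to −0.15, so each kept its sign.

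Map4 (chr9:109931460-110083955, plus strand), the tau relative found in many cell types, lay on the same side as Mapt in both transgene comparisons. Its CPM in inhibitory neuron-like nuclei were 72.5 in P301S/EKO, 88.4 in P301S, 64.7 in EKO and 56.1 in WT. Dentate granule neuron-like nuclei held 77.6, 101, 66.7 and 78.2 CPM in that order, on 30 UMIs in P301S. For Map4 the neuron mean was 0.36 in P301S over WT (0.16 to 0.56) and 0.21 in P301S/EKO over EKO (0.02 to 0.40). Its ratio of 1.58 in inhibitory neuron-like nuclei of P301S over WT (1.14 to 2.20) was the only class of Map4 past 1.5-fold among neurons in these 2 comparisons.

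Map1a (chr2:121289600-121310832, plus strand) encodes a protein of the mature neuronal cytoskeleton and was higher with the transgene on both backgrounds. Inhibitory neuron-like nuclei held 90.3 CPM in P301S/EKO, 94.3 in P301S, 52.0 in EKO and 84.1 in WT. CA1 neuron-like nuclei held 76.9, 87.4, 66.5 and 63.1 CPM in that order. The inhibitory ratio of P301S/EKO over EKO, 1.74 (1.20 to 2.54), thus stood beside an EKO level that was 1.62-fold lower than that of WT (1.13 to 2.34). For Map1a the neuron mean was 0.33 in P301S over WT (0.13 to 0.53), 0.37 in P301S/EKO over EKO (0.18 to 0.57), −0.22 in P301S/EKO over P301S and −0.27 in EKO over WT (−0.45 to −0.08).

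Map1b (chr13:99421446-99516540, minus strand), known for its role in growing axons, lay close to 0 in P301S over WT and below 0 in P301S/EKO over EKO. Dentate granule neuron-like nuclei had the highest levels, with 539 CPM in P301S/EKO, 494 in P301S, 643 in EKO and 539 in WT. In the other neuron-like classes it ranged from 282 to 346 CPM in P301S/EKO, 264 to 343 in P301S, 317 to 359 in EKO and 250.4 to 315 in WT. EKO was above WT in 5 of 5 classes, with a neuron mean of 0.22 (0.14 to 0.30). P301S/EKO over EKO gave a neuron mean of −0.13 (−0.21 to −0.04). In P301S over WT it was 0.03 (−0.07 to 0.13), but it turned to −0.15 with median-of-ratios scaling and to −0.07 with Mapt, Prnp, Malat1 and mitochondrial genes left out of the total.

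Map6 (chr7:99267447-99337137, plus strand), whose protein makes microtubules stable to cold, had the fewest UMIs. Its levels in dentate granule neuron-like nuclei were 40.5 CPM in P301S/EKO (47 UMIs), 77.8 in P301S (23), 48.2 in EKO (81) and 32.4 in WT (34). CA1 neuron-like nuclei held 32.3, 53.0, 31.2 and 32.3 CPM in that order. P301S stood above the other libraries in both classes, 2.40-fold above WT in the first (interval 1.35 to 4.19) and 1.64-fold in the second (1.06 to 2.50). CA2 or CA3 neuron-like nuclei held 21.6, 21.3, 32.7 and 21.1 CPM in the same order of libraries, on 16 UMIs in P301S, and EKO was highest there. The neuron mean was 0.52 in P301S over WT (0.23 to 0.82), with single classes from 0.01 to 1.24. In P301S/EKO over EKO it was −0.18 (−0.45 to 0.09). Among CA2 or CA3 neurons P301S/EKO was 1.52-fold lower than EKO, with an interval of 0.928 to 2.52 that includes no difference.

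Map7d2 (chrX:159414572-159498757, plus strand), of a family that links microtubules to kinesin, was lower in P301S than in WT in 4 of 5 neuron-like classes. It stood at 146 CPM in P301S/EKO, 119 in P301S, 160.1 in EKO and 153 in WT in CA1 neuron-like nuclei. Dentate granule neuron-like nuclei held 129, 112, 125 and 153 CPM in that order. The neuron mean was −0.22 in P301S over WT (−0.38 to −0.06) and −0.16 in EKO over WT (−0.28 to −0.04). It was 0.03 in P301S/EKO over EKO (−0.09 to 0.16) and turned to −0.02 with equal weight per nucleus.

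The stathmins bind tubulin dimers and promote the loss of subunits from microtubule ends. Stmn1 (chr4:134468320-134473843, plus strand), the founding member, had 46.9 CPM in P301S/EKO, 87.4 in P301S, 36.9 in EKO and 51.8 in WT in CA1 neuron-like nuclei. Inhibitory neuron-like nuclei held 77.2, 102, 43.5 and 79.4 CPM in that order. EKO was lowest in both classes. The neuron mean of Stmn1 was 0.34 in P301S over WT (0.10 to 0.57) and 0.43 in P301S/EKO over EKO (0.21 to 0.66), above 0 in 5 of 5 classes in each. It was −0.33 in P301S/EKO over P301S and −0.43 in EKO over WT (−0.65 to −0.21), below 0 in 5 of 5 classes in each.

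Stmn3 (chr2:181306459-181314500, minus strand), a neuronal stathmin, had 253 CPM in P301S/EKO, 319.6 in P301S, 189.6 in EKO and 245 in WT in CA1 neuron-like nuclei. Inhibitory neuron-like nuclei held 300.7, 439, 287 and 274 CPM in that order. P301S was highest in both, and WT and EKO changed places between them. Its neuron means were 0.33 in P301S over WT (0.21 to 0.45), 0.40 in P301S/EKO over EKO (0.29 to 0.51), −0.27 in P301S/EKO over P301S and −0.34 in EKO over WT (−0.44 to −0.23). Stmn2 (chr3:8509360-8561606, plus strand), a stathmin of growing and regenerating axons, followed less closely. Its levels in dentate granule neuron-like nuclei were 63.0 CPM in P301S/EKO, 94.7 in P301S, 41.1 in EKO and 73.5 in WT. The neuron mean was 0.23 in P301S/EKO over EKO (0.09 to 0.38), above 0 in 5 of 5 classes, and −0.32 in EKO over WT (−0.45 to −0.18), below 0 in 5 of 5. In P301S over WT it was 0.07 (−0.09 to 0.24), and turned to −0.11 with median-of-ratios scaling, to −0.08 with nuclei thinned to 1000 UMIs and to −0.02 with the total that leaves out Mapt, Prnp, Malat1 and mitochondrial genes.

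Ribosomal protein genes lay on the same side as Stmn1 and Stmn3 in these neurons. Their median neuron mean was 0.15 in P301S over WT, 0.34 in P301S/EKO over EKO, −0.11 in P301S/EKO over P301S and −0.33 in EKO over WT, over 78 to 80 genes. With median-of-ratios scaling the first turned to −0.02 and the third to 0.07. Over all kept nuclei the summed ribosomal protein genes stood at 9902 CPM in P301S/EKO, 11667 in P301S, 7995 in EKO and 9798 in WT. Their part in the stathmin ratios was not tested.

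**Figure D2:**
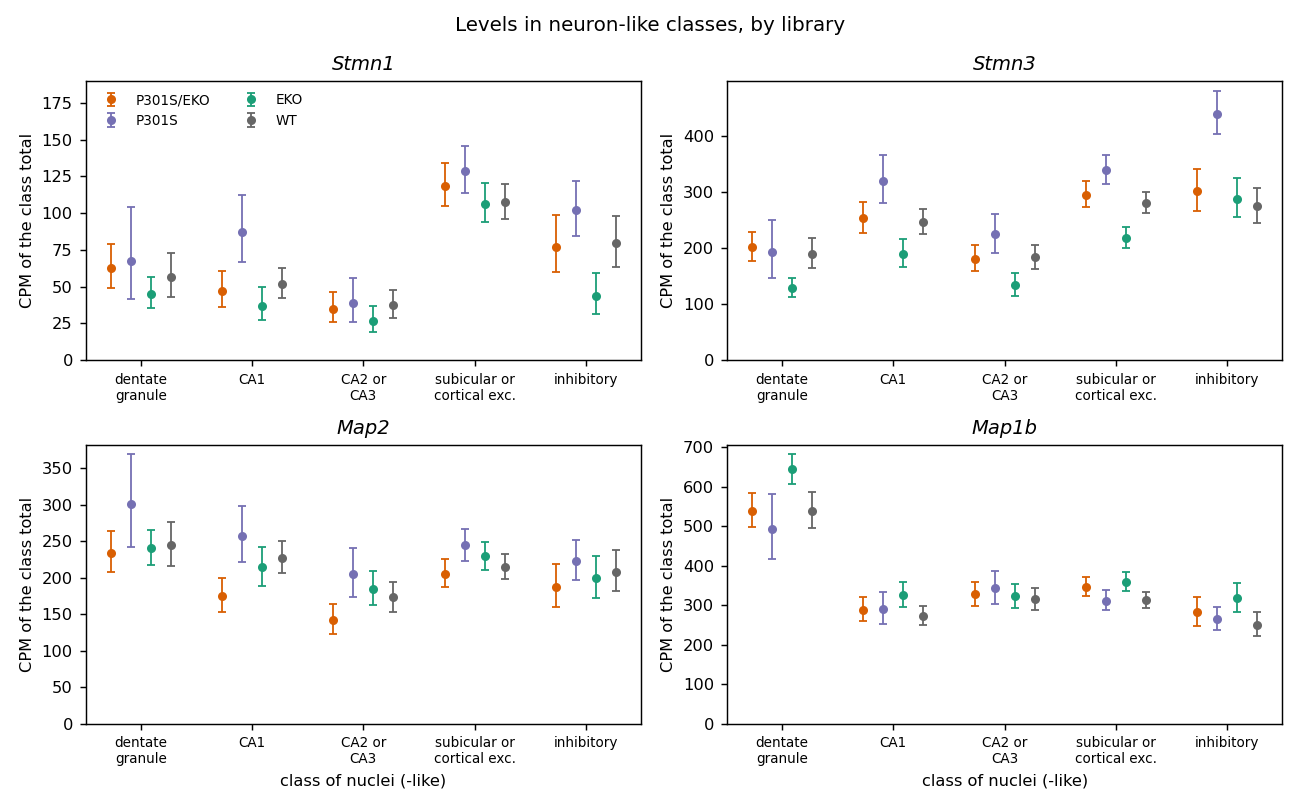
Levels in CPM of the class total (vertical axes) of Stmn1, Stmn3, Map2 and Map1b in the 5 neuron-like classes (horizontal axes) for P301S/EKO, P301S, EKO and WT, 1 point per library with its exact Poisson 95% interval. Stmn1 of EKO is the lowest point in each class, at 26.8 CPM among CA2 or CA3 nuclei and 107 among subicular or cortical ones, and Map2 of P301S/EKO is the lowest point in each class.

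Other members lay on the side of Mapt in part. In P301S over WT, 7 of the 10 genes were above 0 in all 5 neuron-like classes (Mapt, Map1a, Map2, Map4, Map6, Stmn1 and Stmn3), beside 22.8% of 4039 genes with at least 50 UMIs over both libraries in each class. None was below 0 in all 5, beside 7.01%. With median-of-ratios scaling the 7 became 2 (Mapt and Map1a, beside 8.1% of genes), and with the total reduced in the same way 4 (Mapt, Map1a, Map2 and Map4, beside 13.7%). Below 0 in all 5 were then Map1b and Map7d2 with the first scaling (beside 22.1%) and Map7d2 with the second (beside 13.6%). Both counts thus depended on the scaling. On the Apoe-deficient background, P301S/EKO over EKO, 6 of 10 were (Mapt, Map1a, Map4, Stmn1, Stmn2 and Stmn3), beside 10.5% of 4751 genes, and Map2 was below 0 in all 5, beside 12.3%. Here the other scalings gave 5 (without Stmn2, beside 9.58%) and 6 (beside 13.3%). Mapt, Map1a, Map4, Stmn1 and Stmn3 were above 0 throughout in both, 5 of 10 beside 3.55% of 3855 genes. With median-of-ratios scaling only Mapt and Map1a stayed so in both, and with the reduced total only Mapt, Map1a and Map4. By the 10 finer neuron-like clusters, P301S was above WT in 7 for Map1a, Map4 and Stmn1. It was above WT in 8 for Map2, 9 for Map6 and 10 for Stmn3, and below WT in 6 for Map7d2. P301S/EKO was above EKO in 10 for Map1a, 9 for Stmn1, 8 for Map4 and Stmn3, and 6 for Stmn2. It was below EKO in 8 for Map2. The median of the 9 genes other than Mapt was 0.33 in P301S over WT and 0.21 in P301S/EKO over EKO, against 0.67 and 0.40 for Mapt itself. The median of all genes was 0.10 and −0.02 in these comparisons. With median-of-ratios scaling the median of all genes moved to −0.08 in P301S over WT, that of the 9 genes to 0.15 and Mapt to 0.49; this scaling moves all genes of a class together.

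**Figure D3:**
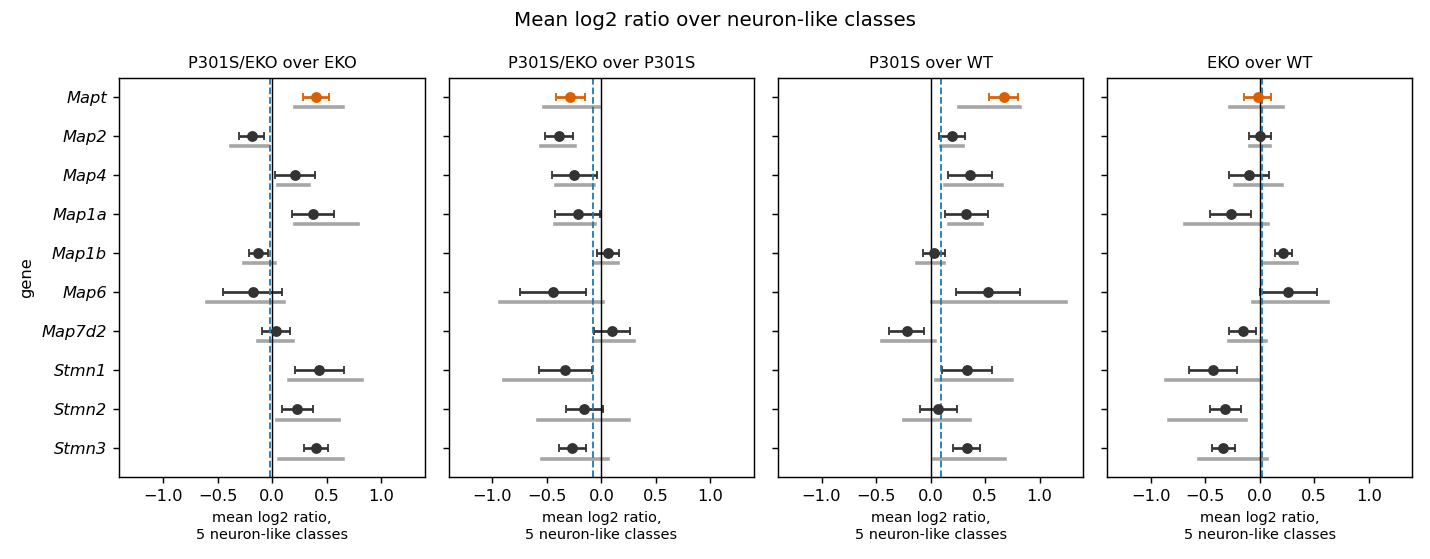
Mean log2 ratio over the 5 neuron-like classes (horizontal axes) of each of the 10 genes (vertical axis) in 4 comparisons of 2 libraries: points with their 95% counting interval, grey bars from the lowest to the highest class, and a dashed line at the median of all genes. Mapt, in orange, stands at 0.40 in P301S/EKO over EKO and at 0.67 in P301S over WT, and Map2 lies left of 0 in the first and right of it in the second.

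A difference of at least 1.5-fold on at least 50 UMIs was the size used to single out a gene. By the neuron mean, Mapt in P301S over WT was the only member past it, 1.59-fold higher, beside 3.34% of genes higher and 0.743% lower. None of the 10 was past it in P301S/EKO over EKO (1.92% of genes higher, 0.168% lower), in P301S/EKO over P301S (0.684% higher, 4.06% lower) or in EKO over WT (0.904% higher, 1.83% lower). By single classes, 9 of 50 gene and neuron-class pairs were higher in P301S over WT and 0 lower, beside 11.4% and 3.7% of all such pairs. Mapt gave 4 of the 9. The others were Map4 and Stmn3 in inhibitory, Map6 in dentate granule and CA1, and Stmn1 in CA1 neuron-like nuclei. In P301S/EKO over EKO, 5 of 50 pairs were higher and 1 lower, beside 5.16% and 3.4%. These were Mapt in CA1, Map1a and Stmn1 in inhibitory, and Stmn2 and Stmn3 in dentate granule neuron-like nuclei, with Map6 in CA2 or CA3 lower. Mapt in CA1 was the only pair past 1.5-fold in both. With at least 500 UMIs, 2 of 14 member pairs were higher in P301S over WT (Mapt in the subicular or cortical class and Stmn3 in the inhibitory class) and 0 lower, beside 3.39% and 1.99% of all such pairs. In P301S/EKO over EKO 0 of 14 were past 1.5-fold either way, beside 3.31% higher and 0.46% lower.

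**Figure D4:**
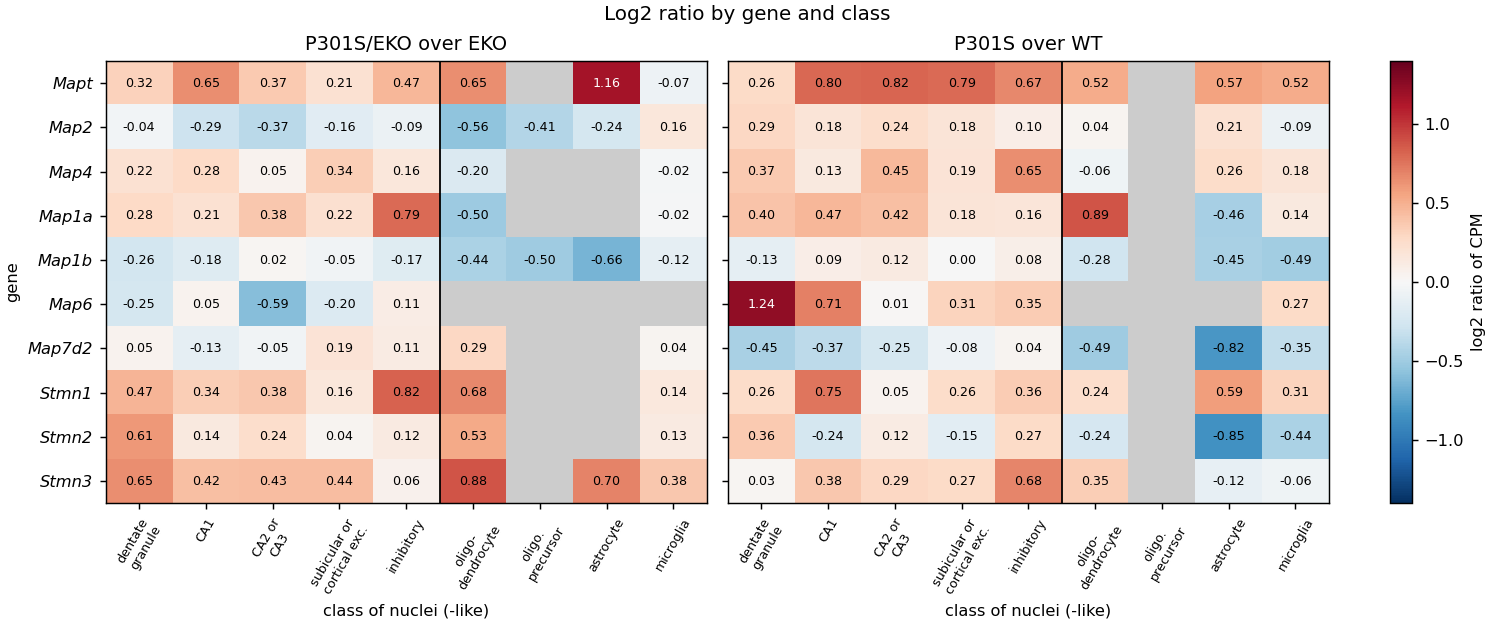
Log2 ratio of CPM (colour scale) for each of the 10 genes (rows) and each class (columns) in P301S/EKO over EKO (left) and P301S over WT (right), with grey where the 2 libraries hold under 50 UMIs or the class was not compared. Mapt in CA1 neuron-like nuclei is 1.58-fold and 1.75-fold higher, while Map6 among CA2 or CA3 nuclei is 1.52-fold lower on the left.

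P301S/EKO beside P301S, and EKO beside WT, give the same genes with and without Apoe; each shares a library with the comparisons above, so these values are not independent of them. Set over P301S, P301S/EKO had Mapt, Map1a, Map2, Map4 and Stmn1 below 0 in all 5 neuron-like classes, 5 of the 9 members with enough UMIs in each class (all but Map6), beside 21.4% of all genes, and 0 above, beside 8.24%. With either other scaling Map2 alone was below 0 in all 5, beside 8.8% and 13.1%. Map1b and Map7d2 were then above 0 in all 5, beside 23.7% and 15.7%. The median of the 9 other genes was −0.25 and that of all genes −0.08. Of 49 pairs with neuron-like classes, 0 were 1.5-fold higher and 4 lower, beside 4.14% and 11.6% of all pairs. With at least 500 UMIs it was 0 of 13 either way, beside 2.51% and 3.73%. The 4 were Map6 in dentate granule (1.92-fold) and CA1 (1.64-fold), Stmn1 in CA1 (1.86-fold) and Stmn2 in dentate granule neuron-like nuclei, whose interval includes no difference. In EKO over WT, Map1b was above 0 in all 5 classes, beside 14.4% of genes, and Stmn1 and Stmn2 below, beside 11.7%. With median-of-ratios scaling Stmn2 alone was below, beside 10.9%. Of 50 pairs, 1 was 1.5-fold higher (Map6 in CA2 or CA3) and 3 lower, beside 4.51% and 5.6% of all pairs. With at least 500 UMIs it was 0 of 17 either way, beside 1.85% and 2.5%. Stmn1 and Map1a in inhibitory neuron-like nuclei were 1.83-fold and 1.62-fold lower, and Stmn2 in dentate granule neuron-like nuclei was 1.79-fold lower.

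The median of the tubulins, of which microtubules are built, lay on the other side of 0 from Mapt in P301S over WT, while Tubb2b lay on the side of Mapt. Over the 8 of 16 listed with enough UMIs in each neuron-like class the median neuron mean was −0.31. By that mean 0 were past 1.5-fold in either direction. In dentate granule nuclei alone 2 of 8 were lower and 0 higher, beside 8.41% and 13.2% of genes. Past 1.5-fold either way were 0 of 11 in CA1, 0 of 9 in CA2 or CA3, and 0 of 11 in subicular or cortical nuclei. In inhibitory nuclei it was also 0 of 11. Of all genes, 1.92% to 4.85% were lower and 9.23% to 13.8% higher in these classes. The neuronal tubulin gene Tubb3 stood at a mean of 81.8 CPM over classes in P301S and 102 in WT (log2 −0.37, interval −0.59 to −0.14), and Tubb5 at 106 and 136 (−0.36). Tubb2b, at the other end of the list, averaged 52.5 CPM in P301S and 44.6 in WT (0.18, interval −0.08 to 0.44), above 0 in 4 of 5 classes, and Tubb4b stood at −0.19. In P301S/EKO over EKO the tubulin median was 0.12 over 9 genes. There Tubb2b averaged 55.2 CPM in P301S/EKO and 38.7 in EKO (0.59, interval 0.35 to 0.84), 1 of 9 past 1.5-fold, while Tubb3 stood at 0.22, Tubg2 at 0.05 and Tubb2a at −0.03. Both tubulin medians kept their sign with the other scalings.

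Other microtubule-associated proteins had medians of 0.20 in P301S over WT and 0.04 in P301S/EKO over EKO, over 6 of 16 genes in each. With median-of-ratios scaling the first was 0.03. Stmn4, the remaining stathmin, had the largest value, with a mean of 238 CPM in P301S and 142 in WT (0.75, interval 0.62 to 0.89; 1 of 6 past 1.5-fold) and 154 in P301S/EKO and 125 in EKO (0.31). Map7d1 stood at 0.43, Dpysl2 at −0.03 and Map9 at −0.05 in P301S over WT, and Dclk2 at 0.12, Dclk1 at −0.06 and Dpysl2 at −0.07 in P301S/EKO over EKO. Motors, the kinesins and dyneins that walk on microtubules, had medians of 0.30 over 16 of 18 genes, or 0.12 with median-of-ratios scaling, and −0.01 over 17, the second turning to 0.02 with Mapt, Prnp, Malat1 and mitochondrial genes left out of the total. The kinesin gene Kif1b stood at 302 CPM in P301S and 220.2 in WT (0.46), and Dync1i1, a dynein chain, at −0.34; in P301S/EKO over EKO Kif5a stood at 0.37 and Kif3a at −0.24. Dctn1, a part of dynactin, was at 0.44 and 0.20 in these comparisons, and Kif21a at −0.13 and −0.12. End-binding and linker proteins had medians of 0.31 over 9 of 16 genes, or 0.13 with median-of-ratios scaling, and −0.04 over 10. Macf1, which links microtubules to actin, was 0.56 in P301S over WT and −0.21 in P301S/EKO over EKO, with 5 and 0 of 5 classes above 0. Mapre1 stood at 0.50, Mapre2 at 0.05 and Clasp2 at −0.15 in P301S over WT, and Nin at 0.17, Mapre2 at 0.14 and Clip1 at −0.31 in P301S/EKO over EKO. By the neuron mean, no gene of the motors or of the end-binding list passed 1.5-fold in these 2 comparisons, but some did in single classes. In CA2 or CA3 nuclei of P301S over WT, 5 of 13 end-binding genes were higher and 0 lower, beside 13.8% and 3.58% of genes. In CA1 nuclei 4 of 14 were higher and in dentate granule nuclei 2 of 9, beside 13.2% in each. In subicular or cortical nuclei it was 2 of 16 (beside 9.24%), and in inhibitory nuclei 1 of 15 (9.23%). In dentate granule nuclei 3 of 16 motors were higher and 1 lower, beside 13.2% and 8.41%. In CA1 nuclei 2 of 18 motors were higher, beside 13.2%. It was 0 of 18 in CA2 or CA3 (beside 13.8%), subicular or cortical (9.24%) and inhibitory nuclei (9.23%).

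Tau kinases and phosphatases had a median of 0.15 over 18 of 32 genes in P301S over WT, which turned to −0.03 with median-of-ratios scaling. In P301S/EKO over EKO their median was 0.04 over 23 genes. By the neuron mean 0 passed 1.5-fold in these 2 comparisons. In CA1 nuclei of P301S over WT, 8 of 26 were higher and 0 lower, beside 13.2% and 4.85% of genes. Fewer were higher in the other classes: 1 of 18 in dentate granule (beside 13.2%) and 2 of 25 in CA2 or CA3 nuclei (13.8%). In subicular or cortical nuclei it was 3 of 30 (9.24%), and in inhibitory nuclei 2 of 27 (9.23%). Cdk5r1, whose product activates the tau kinase Cdk5, averaged 114 CPM in P301S and 78.1 in WT (0.56, interval 0.38 to 0.75). Ppp2ca, a catalytic subunit of the main tau phosphatase, was 0.44 in P301S over WT (0.17 to 0.71) and 0.51 in P301S/EKO over EKO (0.25 to 0.77), with 5 of 5 classes above 0 in each. Gsk3b, a tau kinase, was −0.11 in P301S/EKO over EKO (−0.22 to 0.00). Prkaca stood at 0.41 and Mark3 at −0.24 there, and Ppp3ca at −0.09 and Ppp2r1a at −0.15 in P301S over WT. Enzymes that modify tubulin or sever microtubules had medians of 0.20 over 6 of 23 genes, or 0.02 with median-of-ratios scaling, and 0.07 over 7. By the neuron mean 0 of them were past 1.5-fold. In dentate granule nuclei of P301S over WT, 3 of 7 were higher and 1 lower, beside 13.2% and 8.41% of genes. Elsewhere 0 of 10 were higher in CA1 (beside 13.2%) and 0 of 9 in CA2 or CA3 nuclei (13.8%). In subicular or cortical nuclei it was 1 of 16 (9.24%), and in inhibitory nuclei 0 of 9 (9.23%). Agtpbp1, which trims tubulin glutamates, stood at 0.40 and the glutamylase gene Ttll7 at −0.23 in P301S over WT, with Sirt2 at 0.32 and Hdac6 at 0.04. Atat1, the tubulin acetyltransferase gene, was at −0.19 in P301S/EKO over EKO, with Katna1 at 0.23 and Hdac6 at 0.02. The list medians given without a named scaling lay beside 0.10 and −0.02 for all genes. Those of P301S over WT with median-of-ratios scaling lay beside −0.08 for all genes. The motor median of 0.02 in P301S/EKO over EKO with the reduced total lay beside 0.02.

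The genes whose levels ran most like those of Mapt were sought over 32 values, 8 classes in 4 libraries, among 2806 abundant genes. The values share libraries, depth and free RNA, so the correlations are a description. Over all values the closest were Kctd3 (r = 0.79), Aatk (0.75), Stmn4 (0.72), Sgk1 (0.72) and Agpat4 (0.71). Stmn1 was at rank 141 (0.45), Map4 at 185 (0.41), Stmn3 at 251 (0.36), Map1b at 2552 (−0.22) and Map2 at 2630 (−0.26). With each class set to its own mean, so that differences between libraries alone were left, the closest were the complement genes C1qc (0.92), C1qb (0.90) and C1qa (0.87), which microglia express. B2m, of the class I antigen complex, stood at 0.86. Stmn1 then stood at rank 37 (0.75), Stmn3 at 82 (0.69), Prnp at 88 (0.69), Map4 at 286 (0.54) and Map1a at 585 (0.37). Map2 was near 0 (0.07), and Map7d2 (−0.45) and Map1b (−0.57) ran opposite. Microglia-like nuclei numbered 348 of 5274 in P301S/EKO, 320 of 2860 in P301S, 138 of 5199 in EKO and 209 of 5234 in WT, and their part in these likenesses was not tested.

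Outside neurons, Mapt was highest in oligodendrocyte-like nuclei in 3 of the 4 libraries. These nuclei held 351 CPM in P301S/EKO, 347 in P301S, 222 in EKO and 242 in WT. Microglia-like nuclei held 243, 302, 255 and 210.2 CPM in that order. Astrocyte-like nuclei held 200.5, 213, 88.5 and 144 CPM, on 49, 62, 19 and 75 UMIs. In WT, the intervals of the 7 classes below the microglia-like class overlapped one another, so no order is given among them. P301S over WT ratios were 1.43 in oligodendrocyte-like (1.15 to 1.78), 1.48 in astrocyte-like (1.04 to 2.11) and 1.44 in microglia-like nuclei (1.22 to 1.71). P301S/EKO over EKO ratios were 1.58 (1.19 to 2.10), 2.27 (1.31 to 4.08) and 0.951 (0.731 to 1.25) in the same order of classes.

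Many nuclei of these classes held neuronal RNA. Snap25, a synaptic gene that glia should lack, stood in oligodendrocyte-like nuclei at 345 CPM in P301S/EKO, 344 in P301S, 303 in EKO and 384 in WT. That was 0.933, 0.770, 0.767 and 0.849 of its level over all neuron-like nuclei. Mapt in the same nuclei was 1.80, 1.42, 1.46 and 1.63 times its neuronal level. Nuclei whose share of neuronal transcripts passed 50% of the CA1 median made up 52.6%, 66.0%, 41.4% and 67.8% of the class. With them left out, Mapt stood at 2.41 (1.90 to 3.02), 1.93 (1.35 to 2.68), 1.57 (1.10 to 2.18) and 1.47 times the neuronal level (1.09 to 1.94). Snap25 then stood at 0.690, 0.171, 0.771 and 0.797, so Mapt was above Snap25 relative to neurons in each library. Leaving these nuclei out moved Snap25 little in EKO and WT, so neuronal RNA remained in the class. Free RNA was estimated at 83.7%, 86.6%, 81.3% and 92.3% of the UMIs of all oligodendrocyte-like nuclei, in the same order of libraries. Its part in these ratios was not tested. Among microglia-like nuclei the ratios to neurons were 1.25, 1.24, 1.68 and 1.42 for Mapt and 0.717, 0.713, 0.768 and 0.896 for Snap25, with the median depth between 1857 and 3913 UMIs. Median depth was 1337 to 2195 UMIs in oligodendrocyte-like and 1678 to 2527 in CA1 neuron-like nuclei.

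**Figure D5:**
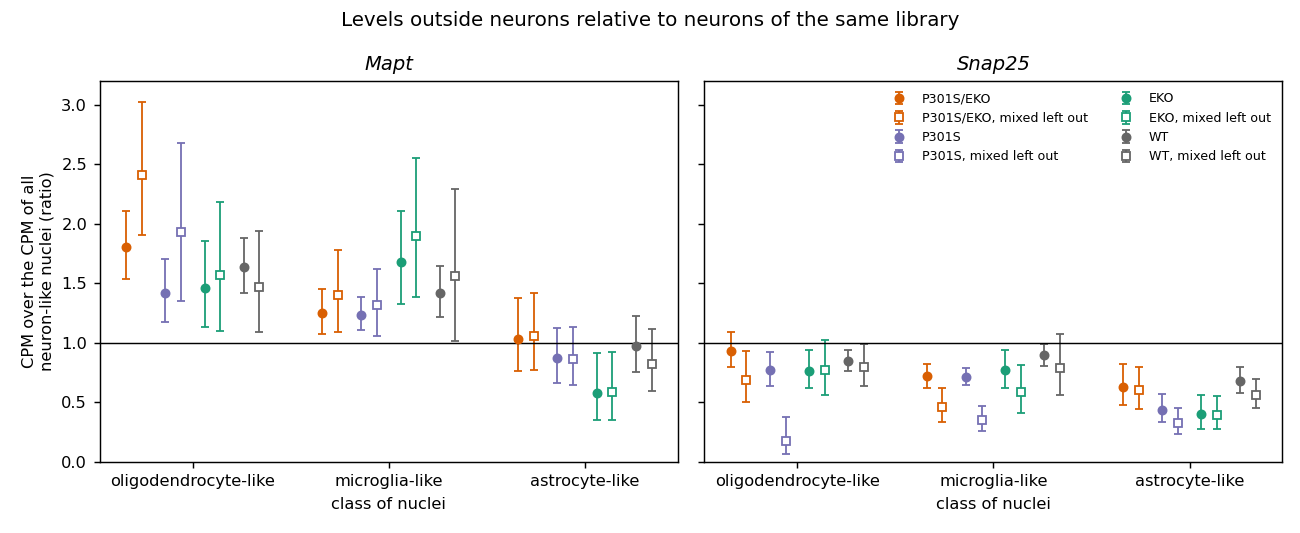
Level of Mapt (left) and Snap25 (right) in oligodendrocyte-, microglia- and astrocyte-like nuclei, as the ratio to all neuron-like nuclei of the same library (vertical axis), for P301S/EKO, P301S, EKO and WT, over all nuclei of the class and with mixed nuclei left out, with 95% counting intervals. Mapt in oligodendrocyte-like nuclei lies between 1.42 and 2.41 times the neuronal level, and Snap25 there between 0.171 and 0.933.

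Over all 10 genes, Mapt included, pairs with classes outside neurons were counted in the same way. Past 1.5-fold were 2 of 28 pairs higher and 2 lower in P301S over WT, beside 13.2% and 10.2% of all pairs in these classes. With P301S/EKO over EKO, 5 of 24 were higher and 1 lower, beside 9.55% and 8.08%. Mapt in oligodendrocyte- and astrocyte-like nuclei gave 2 of the 5, and without Mapt 3 of 21 pairs were higher. P301S/EKO over P301S had 0 of 25 higher and 4 lower, beside 7.0% and 12.1%, and EKO over WT had 2 of 32 higher and 9 lower, beside 8.99% and 12.2%. Map1a in oligodendrocyte-like nuclei had 65.0 CPM in P301S/EKO, 114 in P301S, 92.6 in EKO and 61.2 in WT. P301S stood highest there, 1.86-fold above WT (1.22 to 2.80). Stmn3 in the same nuclei had 240.3, 265, 130 and 208 CPM in that order, and the ratio of P301S/EKO over EKO was 1.85 (1.30 to 2.70). It was low in EKO also in microglia-like (148 CPM against 277 in WT) and astrocyte-like nuclei (102 against 209). The 9 pairs lower in EKO than in WT were Stmn3 in 4 classes, Stmn2 in 2, and Mapt, Stmn1 and Map7d2 in 1 each. Neuronal transcripts as a list stood in astrocyte-like nuclei at 6416 CPM in P301S/EKO, 8844 in P301S, 6235 in EKO and 16839 in WT. WT stood apart there. This touches the ratios of both P301S and EKO over WT in astrocyte-like nuclei, and its part in them was not tested. WT was also highest in microglia-like nuclei, at 36635 CPM against 27631 in EKO, and in precursor-like nuclei, at 28653 against 21863. In oligodendrocyte-like nuclei it was highest as well, at 36219 against 33074. These classes hold the other pairs lower in EKO than in WT, and the part of neuronal RNA in those was not tested.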

How the data were processed

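Per the labels, nuclei of pooled hippocampi were measured in 4 libraries, 1 per genotype, with 10x 3′ chemistry. Deposited values are raw UMI counts, whole numbers for each of 27998 genes in each barcode. Per the submitters' processing notes, the authors used Cell Ranger, Seurat and mm10; their versions, and how intron reads and strand were handled, were not stated there. Of the members, 8 of 10 overlap another annotated gene (all but Stmn2 and Stmn3).

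Barcodes needed 200 detected genes, with mitochondrial UMIs no higher than 5%. Scrublet called 0 doublets at its own threshold, so the highest scores were removed at 0.8% per 1000 barcodes. Nuclei of all libraries were clustered together (2000 variable genes, 30 components, 15 neighbours, Leiden resolution 1). Of 17 clusters, 15 took the name of 1 of 18 marker sets. The set needed at least 3 markers 1.5-fold above other nuclei, and the highest mean log2 fold among such sets. A marker of it had to be among the 50 leading genes, and no other set could have more markers among the 10 leading genes. A cluster of 1449 nuclei was named subicular or cortical with 4 of 11 markers raised and a mean log2 fold of −0.131. A vascular cluster of 500 nuclei and a cluster of 302 led by Prl and Fos stayed unnamed, and the choroid plexus-like class (71 nuclei, 0 in EKO) was not compared. Counts were summed per class and library. CPM intervals are exact Poisson and ratio intervals exact conditional binomial, at 95%, for counting error only; reads of 1 pool are not independent animals. Log2 ratios carry a prior of 0.5 UMI. Classes needed 50 nuclei in both libraries, so oligodendrocyte precursor-like nuclei (48 in P301S) were not compared with P301S.

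Named genes were all 10 members, Prnp, Apoe and Kansl1, the 2 highest and 2 lowest of each further list by neuron mean in both transgene comparisons, and the 5 most like Mapt, which needed at least 2000 UMIs. Among the genes most like Mapt 1, among the list genes 1, and the repeat windows of Mapt are not reported here. The members and lists were chosen with earlier results of these data known. Snap25, Eif2s3y, Xist, Malat1 and ribosomal protein genes served as checks. Alternatives were 12: median-of-ratios scaling, 500 genes or 1100 UMIs per nucleus, doublets kept, resolution 2, each library clustered alone, equal weight per nucleus, nuclei thinned to 1000 UMIs, mixed nuclei left out, free RNA subtracted, a total without Mapt, Prnp, Malat1 and mitochondrial genes, and a minimum of 1 UMI. Clustering used scanpy 1.11.5 with igraph 0.11.9 and scikit-learn 1.9.0; sums and intervals used pandas 2.3.3, scipy 1.17.1 and numpy 2.4.6 in Python 3.11.15; plots used matplotlib 3.10.9.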

Additional observations from a re-analysis of the deposited data

How the results depend on the processing

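With 1 library per genotype, depth, pool makeup and genotype cannot be told apart, and intervals understate the error. No paired analysis was possible because each genotype has 1 library. Free RNA was estimated at 77.1% to 94.5% of the UMIs in oligodendrocyte- and microglia-like nuclei. In the neuron-like classes it was 20.1% to 33.8%. In astrocyte-like nuclei it was 30.0% in P301S/EKO, 39.4% in P301S, 38.3% in EKO and 61.3% in WT. Over the 11 alternatives that apply to it, the neuron mean of Mapt kept its sign in P301S over WT (0.49 to 0.74), P301S/EKO over EKO (0.37 to 0.44) and P301S/EKO over P301S (−0.32 to −0.11). In EKO over WT it ran from −0.06 to 0.06.

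Median-of-ratios scaling gave Mapt 0.49 and the median of the other 9 genes 0.15 in P301S over WT, and −0.11 and −0.0736 in P301S/EKO over P301S. It moved the median of all genes from 0.10 to −0.08 in P301S over WT and from −0.08 to 0.09 in P301S/EKO over P301S, and the total without Mapt, Prnp, Malat1 and mitochondrial genes moved that of P301S over WT to 0.00. Numbers of pairs at least 1.5-fold apart, in neuron-like classes unless said otherwise, varied as follows. Median-of-ratios scaling gave 4 higher and 1 lower in P301S over WT, 2 lower in P301S/EKO over P301S and 2 higher in EKO over WT; outside neurons it gave 1 higher and 5 lower in P301S over WT and 1 higher in P301S/EKO over P301S. Subtracting free RNA gave 1 lower in P301S over WT, 0 lower in P301S/EKO over EKO, 10 lower in P301S/EKO over P301S and 2 higher in EKO over WT. Thinning gave 1 lower in P301S over WT and 2 higher in P301S/EKO over EKO; equal weight per nucleus and the reduced total each gave 0 lower in P301S/EKO over EKO. The causes were not tested.

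Outside neurons, P301S over WT had 4 higher with 500 genes per nucleus and with doublets kept, 0 higher and 0 lower with each library clustered alone, and 1 higher and 4 lower with the reduced total. P301S/EKO over EKO had 3 higher with 500 genes or 1100 UMIs per nucleus, 1 higher with thinning or free RNA subtracted, and 8 higher and 3 lower with a minimum of 1 UMI. Its lower pairs numbered 2 with 500 genes, doublets kept, each library alone, equal weight or free RNA subtracted, and 3 with thinning or mixed nuclei left out. P301S/EKO over P301S had 1 higher with equal weight or free RNA subtracted, 2 higher and 2 lower with mixed nuclei left out, and 1 lower with thinning. EKO over WT had 1 higher under 7 alternatives (500 genes, doublets kept, resolution 2, each library alone, 1100 UMIs, free RNA subtracted, reduced total) and 0 with mixed nuclei left out; its lower pairs numbered 5 with 500 genes, 2 with thinning or free RNA subtracted, and 3 with mixed nuclei left out.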

Other observations

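Mapt was also counted in nuclei that belong to no comparison. The unnamed vascular cluster held 74.2 CPM in P301S/EKO (9 UMIs), 128 in P301S (37), 146 in EKO (23) and 97.6 in WT (43). The unnamed cluster led by Prl and Fos held 220.2 CPM in P301S/EKO, 218 in P301S, 136 in EKO and 205 in WT, on 21 to 42 UMIs. Oligodendrocyte precursor-like nuclei held 209 CPM in P301S/EKO, 272 in P301S, 147 in EKO and 164 in WT, on 14 to 26 UMIs. Map2 in the precursor-like nuclei stood at 259.7 CPM in P301S/EKO, 230.1 in P301S, 346 in EKO and 269 in WT.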
